A study of Arabidopsis thaliana with 4 samples.

Results

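The MIR165 and MIR166 genes are 9 short non-coding genes of *Arabidopsis thaliana*: MIR165A (AT1G01183), MIR165B (AT4G00885), MIR166A (AT2G46685), MIR166B (AT3G61897), MIR166C (AT5G08712), MIR166D (AT5G08717), MIR166E (AT5G41905), MIR166F (AT5G43603) and MIR166G (AT5G63715). Every KAN1 ChIP-Seq region that the deposited table assigned to one of these genes, as the nearest gene on either side or as a gene it overlapped, was taken. This gave 27 of the 22109 regions in the table, of which 22103 lay on the 5 nuclear chromosomes and served as the background. Of the 9 genes, 8 were named by at least 1 region and MIR166G by none.

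The 2 KAN1 ChIP libraries came from 35S:FLAG-GR-KAN1 plants in the Columbia-0 ecotype, in which the viral 35S promoter drives KAN1 throughout the plant, fused to a FLAG tag and to the rat glucocorticoid receptor, so that the protein enters the nucleus on treatment with dexamethasone (DEX). The sample labels list 2 control libraries of the Columbia-0 ecotype and name them input. The methods of the study describe only a single control library, from Col-0 wild-type plants, and do not say which column it is, so the reads of both control columns were summed in every ratio. All 4 libraries came from plants grown for 10 days in liquid culture and given DEX for 45 minutes, and the tagged protein was pulled down with anti-FLAG beads. Within the regions the ChIP libraries held 2082943 and 1036664 reads, control 1 held 661648 and control 2 held 13441, with no control 2 read in 13929 regions. The study calls the ChIP replicates independent experiments, and neither it nor the labels say whether they came from separate cultures. With 1 condition and an overexpressed protein no change between conditions can be read from these values.

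miR165 and miR166 are small RNAs cut from hairpin precursors. They pair with the messenger RNAs of the class III homeodomain-leucine zipper (HD-ZIP III) transcription factors, which set the upper (adaxial) side of the leaf and the meristem, and lead to their cleavage. KAN1 (KANADI1) is a GARP-family transcription factor of the lower (abaxial) side of the leaf, where miR165 and miR166 accumulate. The annotated MIR gene is the hairpin, and its 5′ end is not the start of the longer primary transcript, so distances below run to the hairpin.

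The mature sequences show why the 9 genes form 1 family. They were read from the RefSeq annotation of the TAIR10.1 assembly, with the seed (bases 2 to 8) in capitals. MIR165A and MIR165B encode 1 sequence and the 7 MIR166 genes another, with the same seed. The only difference, counted from the 5′ end with the miR166 base first, is U17C.
miR166: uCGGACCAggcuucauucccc
miR165: uCGGACCAggcuucauccccc
The target sites in the HD-ZIP III mRNAs are given because KAN1 regions at these targets are compared below. Capitals mark bases that differ from the exact complement of miR166, G:U pairs included. PHB, PHV, REV and ATHB8 differed from it at 4 bases and ATHB15 at 3, PHV had the sequence of PHB, and all 5 sites are interrupted by an intron in the genome.
PHB: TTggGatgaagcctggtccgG
REV: CTggGatgaagcctggtccgG
ATHB15: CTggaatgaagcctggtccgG

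The DNA under the 6 regions with a mean ratio of at least 3 is shown next, with that of the region closest below this threshold, which also lay close to its hairpin. Letters are the plus strand of the TAIR10.1 assembly, whose chromosomes carry the TAIR10 coordinates of the deposited table. Capitals mark matches on either strand to the KAN1 motif VGAATAW (where V stands for any base but T, and W for A or T). Regions longer than 300 bp are shown as the 300 bp at their centre, or, for MIR166F, as the last 300 bp, which are clear of the end of the neighbouring gene.
MIR166B, 4309 bp upstream, chr3:22917762-22918040: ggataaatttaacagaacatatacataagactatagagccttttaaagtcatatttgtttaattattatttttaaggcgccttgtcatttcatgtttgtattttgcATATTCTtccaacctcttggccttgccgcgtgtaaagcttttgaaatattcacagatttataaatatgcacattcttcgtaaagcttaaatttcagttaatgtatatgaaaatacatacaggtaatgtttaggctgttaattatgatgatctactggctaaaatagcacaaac
MIR166E, 2884 bp downstream, chr5:16772532-16772748: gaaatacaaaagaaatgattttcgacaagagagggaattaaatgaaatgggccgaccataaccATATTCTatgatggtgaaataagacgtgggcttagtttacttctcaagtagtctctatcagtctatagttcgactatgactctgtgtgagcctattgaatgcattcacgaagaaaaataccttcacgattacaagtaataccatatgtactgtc
MIR166A, 3216 bp upstream, chr2:19172760-19173059: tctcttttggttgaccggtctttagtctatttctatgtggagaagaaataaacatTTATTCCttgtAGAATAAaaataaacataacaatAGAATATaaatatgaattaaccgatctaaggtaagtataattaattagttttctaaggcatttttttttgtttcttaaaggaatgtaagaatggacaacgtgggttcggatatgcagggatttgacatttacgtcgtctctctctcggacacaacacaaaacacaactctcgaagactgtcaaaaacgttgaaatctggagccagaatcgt
MIR166C and MIR166D, chr5:2839918-2840108: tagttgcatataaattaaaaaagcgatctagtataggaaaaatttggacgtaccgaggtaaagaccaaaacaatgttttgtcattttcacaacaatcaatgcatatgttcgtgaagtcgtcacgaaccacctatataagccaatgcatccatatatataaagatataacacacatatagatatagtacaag
MIR166A, 7156 bp upstream, chr2:19168886-19169053: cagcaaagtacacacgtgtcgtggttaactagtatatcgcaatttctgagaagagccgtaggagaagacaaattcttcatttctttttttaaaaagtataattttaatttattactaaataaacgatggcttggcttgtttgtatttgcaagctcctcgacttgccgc
MIR166F, 658 bp upstream, chr5:17515541-17515840: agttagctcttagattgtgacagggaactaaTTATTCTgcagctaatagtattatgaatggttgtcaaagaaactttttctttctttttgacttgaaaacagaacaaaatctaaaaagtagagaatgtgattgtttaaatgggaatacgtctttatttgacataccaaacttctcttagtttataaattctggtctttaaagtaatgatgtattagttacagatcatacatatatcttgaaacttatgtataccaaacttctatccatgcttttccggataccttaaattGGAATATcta
MIR166B, 208 bp upstream, chr3:22921878-22922125: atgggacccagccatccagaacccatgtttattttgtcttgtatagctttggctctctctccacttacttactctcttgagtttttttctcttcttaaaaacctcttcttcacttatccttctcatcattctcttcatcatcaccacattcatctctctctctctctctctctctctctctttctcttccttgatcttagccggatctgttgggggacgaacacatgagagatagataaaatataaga

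The most enriched KAN1 regions of the family lay at MIR166A to MIR166F, and of the 8 genes with a region, MIR165A and MIR165B had the lowest top regions. Enrichment was the number of ChIP reads divided by the summed reads of both controls, for each replicate, with no correction for depth, so that a ratio for replicate 2 rests on fewer ChIP reads and the SD of the pair includes the difference in library totals. The summed reads of all regions gave ratios of 3.09 and 1.54 for the replicates, and those of the 27 regions 2.98 and 1.64. Of the 27 regions, 6 (22.2%) had a mean ratio of at least 3, against 18.8% of all 22103 regions, a share near the background. These 6 regions named 6 of the 8 genes that had any region, MIR166A to MIR166F, against 25.4% of the 22970 genes named in the table, and MIR166C and MIR166D shared 1 of them. A gene with more regions has more chances to hold one past the threshold, so the share over genes and the share over regions are different quantities. The median mean ratio was 2.22 for the 27 regions (1.00 to 4.39) and 1.62 for all regions.

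No region passed the threshold in both replicates. A ratio of at least 3 in each replicate was found in 0 of the 27 regions, against 7.37% of all regions. In replicate 1 alone 12 of the 27 (44.4%) had a ratio of at least 3, against 31.8% of all regions. The highest replicate 2 ratio was 2.74. The peak caller's deposited false discovery rate was at most 0.05 for 25 of the 27 regions (92.6%) in replicate 1, against 75.9% of all regions, and for 0 in replicate 2, against 5.93%. The lowest value in replicate 2 was 0.056, at a region 2826 bp downstream of MIR166A. The replicate 2 rates followed control 2, which held only 13441 reads, and not the summed controls of the ratios. The MIR166A region 7156 bp upstream and the MIR166B region 4817 bp upstream both had 20 replicate 2 ChIP reads and 0 control 2 reads. They shared a rate of 0.656, though control 1 held 11 and 18 reads. These rates therefore cannot show whether the enrichment over the summed controls was repeated. The study lists MIR166A and MIR166F among its potential KAN1 targets, with published rates that differ from the deposited ones. For the MIR166F region 658 bp upstream the published replicate 2 rate is far under 0.05, against a deposited 0.0865. For MIR166A it is above 0.05. Why the rates differ was not tested. When the ChIP totals were made equal, an alternative chosen after seeing the data, 3 regions had a ratio of at least 3 in both replicates (those of MIR166B, MIR166E and MIR166A 3216 bp upstream), against 16.0% of all regions.

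**Figure D1:**
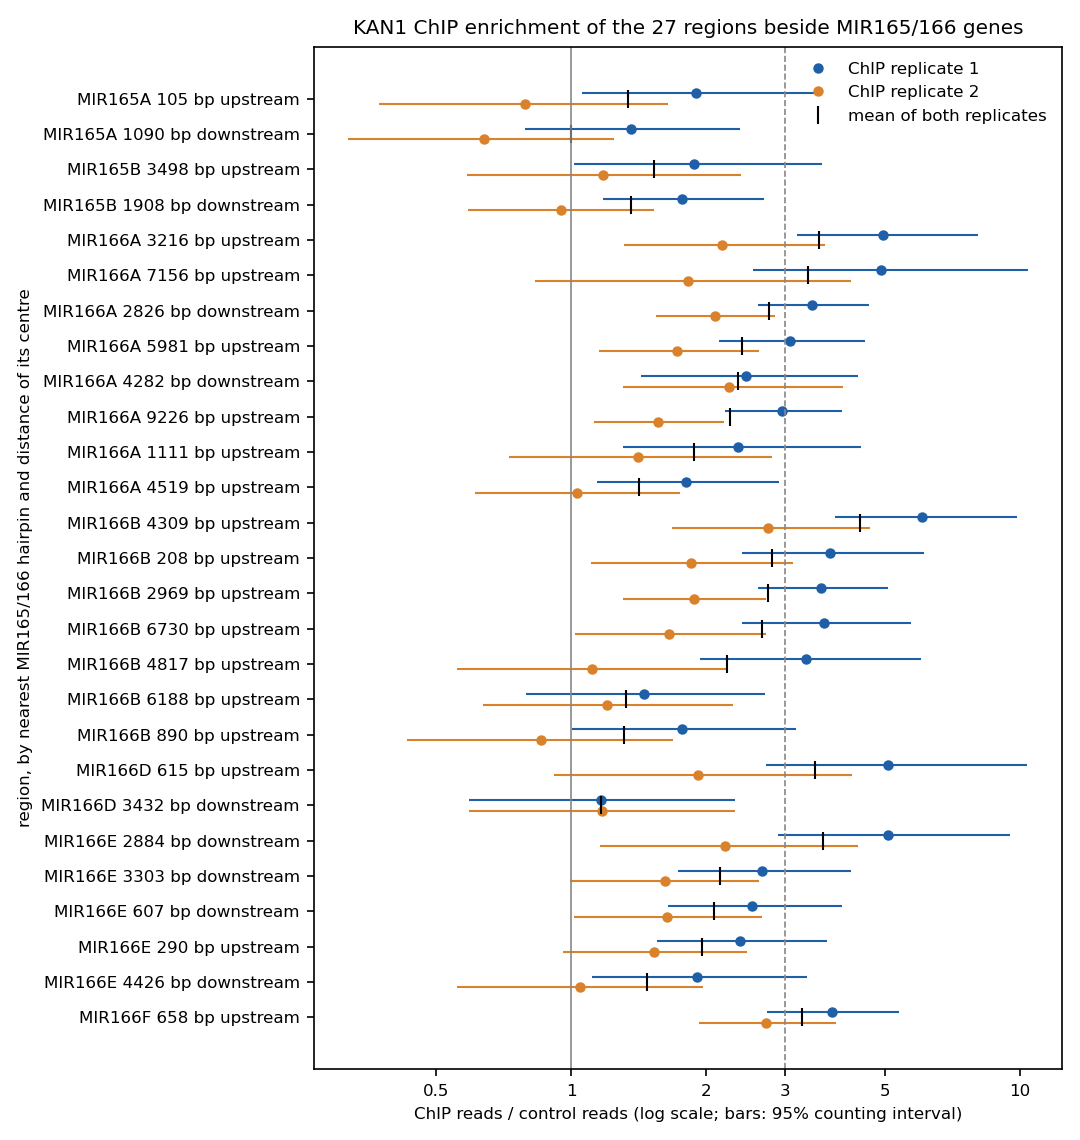
Ratio of ChIP reads to control reads (log axis) for each of the 27 regions in ChIP replicate 1 (blue) and replicate 2 (orange), with the mean (black tick); horizontal bars are 95% counting intervals, and vertical lines mark ratios of 1 and 3. Replicate 1 lies above replicate 2 in 26 of 27 regions, and no replicate 2 point reaches 3.

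The counting intervals were wide. They are exact (Clopper-Pearson) 95% intervals of a ratio of 2 read counts and cover counting error only. Relative to the raw control reads, the replicate 1 interval lay wholly above 1 in 24 of the 27 regions and the replicate 2 interval in 12. No share over all regions stands beside these counts. The summed reads of all regions gave ratios of 3.09 and 1.54, with no correction for depth. An interval above 1 therefore does not by itself set a region apart from the other called regions. The replicate 1 interval lay wholly above 3 in 2 regions, those of MIR166B 4309 bp upstream and MIR166A 3216 bp upstream. The replicate 1 interval of the highest region overlapped that of 16 of the other 26, including all 5 others with a mean ratio of at least 3, so the order of the 6 leading regions is not resolved.

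MIR166B had the highest ratio. Its leading region (chr3:22917762-22918040), 4309 bp upstream of the hairpin, held 139 and 63 ChIP reads in replicates 1 and 2, and 23 and 0 reads in controls 1 and 2. The ratios were 6.04 (95% interval 3.87 to 9.85) and 2.74 (1.68 to 4.63), a mean of 4.39 ± 2.34 (SD, n = 2). Both ChIP libraries stood above control 1, but the calling of regions selects for this and the reads were not corrected for depth. The mean ratio was higher than in 92.4% of all regions. The region lay nearer to ATHB12 (AT3G61890; 2575 bp), a class I HD-ZIP gene, than to MIR166B.

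A further 6 regions, all upstream, named MIR166B. The region at 208 bp (chr3:22921878-22922125), the second closest of the 27 to its hairpin, held 94.1 and 46.2 ChIP reads and 21 and 4 control reads, a mean ratio of 2.81 ± 1.35 (SD, n = 2). This was the highest value under the threshold. A region at 2969 bp held 173 and 90 ChIP reads against 45 and 3 in the controls (2.74 ± 1.22). The other 4, at 6730, 4817, 6188 and 890 bp, had mean ratios of 2.66, 2.22, 1.32 and 1.31. All 7 MIR166B regions lay in the space between MIR166B and ATHB12, which are transcribed away from each other, and the region at 6730 bp lay 154 bp from ATHB12. In the reference annotation the next coding gene, AT3G61898, starts shortly past the MIR166B hairpin. A region beyond that start could name AT3G61898 in place of MIR166B, so the rule left little room for downstream regions.

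MIR166A showed the same gene order, with the class I HD-ZIP gene ATHB7 (AT2G46680), a close relative of ATHB12, transcribed away from it on its 5′ side. Of its 8 regions, 2 had a mean ratio of at least 3. The region 3216 bp upstream (chr2:19172739-19173081) held 119 and 52 ChIP reads and 24 and 0 control reads. Its ratios were 4.96 (3.18 to 8.04) and 2.17 (1.31 to 3.68), a mean of 3.56 ± 1.97 (SD, n = 2). It is nearer to MIR166A than to ATHB7 (5960 bp), and both intervals lay above 1. The region 7156 bp upstream (chr2:19168886-19169053) held 54 and 20 ChIP reads and 11 and 0 control reads, with a mean ratio of 3.36 ± 2.19 (SD, n = 2). It lay 2020 bp from ATHB7, its replicate 2 interval (0.83 to 4.20) included 1, and its ChIP counts were the lowest of the 6 leading regions.

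The most deeply covered of the 27 regions lay downstream of MIR166A at 2826 bp (chr2:19178813-19179363), with 227 and 138 ChIP reads and 65 and 1 control reads. Its ratios of 3.44 (2.60 to 4.60) and 2.09 (1.55 to 2.85) gave a mean of 2.77 ± 0.954 (SD, n = 2), under the threshold. The other gene named there was SAUR32 (AT2G46690; 1642 bp), of the small auxin-up RNA family. The remaining 5 MIR166A regions, at 5981, 9226, 1111 and 4519 bp upstream and 4282 bp downstream, had mean ratios of 2.40, 2.26, 1.88, 1.42 and 2.35. The farthest of these overlapped ATHB7.

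MIR166E had 1 region of at least 3 among 5. It lay 2884 bp downstream of the hairpin (chr5:16772532-16772748) and held 76 and 33 ChIP reads and 14 and 1 control reads. The ratios were 5.07 (2.89 to 9.49) and 2.20 (1.16 to 4.36), a mean of 3.63 ± 2.03 (SD, n = 2). Both ChIP libraries exceeded control 1, which the calling of regions selects for. The region was nearer to the 3′ end of AT5G41900 (943 bp) than to MIR166E. The regions flanking the hairpin, 290 bp upstream and 607 bp downstream, had 76 and 49 ChIP reads each and mean ratios of 1.95 and 2.08. The remaining regions, 3303 and 4426 bp downstream, had mean ratios of 2.14 and 1.48, and the last overlapped AT5G41900.

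MIR166C and MIR166D lie in tandem and shared their only intergenic region. It lay between the hairpins (chr5:2839918-2840108), 1255 bp downstream of MIR166C and 615 bp upstream of MIR166D, and held 61 and 23 ChIP reads and 11 and 1 control reads. The ratios were 5.08 (2.71 to 10.4) and 1.92 (0.915 to 4.23), a mean of 3.50 ± 2.24 (SD, n = 2). No other gene was named, and the replicate 2 interval included 1. A second MIR166D region, 3432 bp downstream within AT5G08720, had a mean ratio of 1.17 ± 0.00518 (SD, n = 2) from 21.2 and 21.3 ChIP reads.

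MIR166F had 1 region (chr5:17515459-17515840), 658 bp upstream and 154 bp past the 3′ end of UAH (AT5G43600), which encodes a ureidoglycolate amidohydrolase of purine breakdown. It held 175 and 125 ChIP reads and 45 and 1 control reads. The ratios were 3.80 (2.74 to 5.39) and 2.72 (1.92 to 3.90), a mean of 3.26 ± 0.769 (SD, n = 2), from the highest ChIP read counts of the 6 leading regions. With the ChIP totals made equal its ratios were 2.85 and 4.09, the widest gap of the 6 and the only one of them with replicate 2 higher. It was the lowest value inside the threshold, with the MIR166B region at 2.81 next below. The share of its ChIP reads that came from replicate 1 was 58.3% (exact 95% interval 52.5 to 64.0), against 66.8% over all regions. Of the 27 intervals of this share, 24 included 66.8%, and the others besides MIR166F were a MIR166A region (4282 bp downstream) and a MIR166D region (3432 bp downstream), all with a smaller share from replicate 1.

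MIR165A and MIR165B had no region near the threshold. The MIR165A region 105 bp upstream, the closest of the 27 to its hairpin, held 36 and 15 ChIP reads and 19 and 0 control reads. Its ratios were 1.89 (1.06 to 3.50) and 0.789 (0.373 to 1.64), a mean of 1.34 ± 0.782 (SD, n = 2), and the replicate 2 ratio was 1.19 with the ChIP totals made equal. The region 1090 bp downstream, 1083 bp from AT1G01180, had the lowest mean ratio of all 27, 1.00 ± 0.509 (SD, n = 2). The MIR165B regions, 3498 bp upstream (470 bp from AT4G00890) and 1908 bp downstream (673 bp from SAUR31, AT4G00880), had mean ratios of 1.53 ± 0.499 and 1.36 ± 0.58 (SD, n = 2). In replicate 1 the MIR165 intervals reached up to 3.61, which is under the lower bound of the leading MIR166B region (3.87) but above those of the other 5 leading regions. In replicate 2 they reached up to 2.39, above the lower bounds of all 6. MIR166G had no region, and the nearest one, 4381 bp away and naming other genes, had a mean ratio of 0.853.

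**Figure D2:**
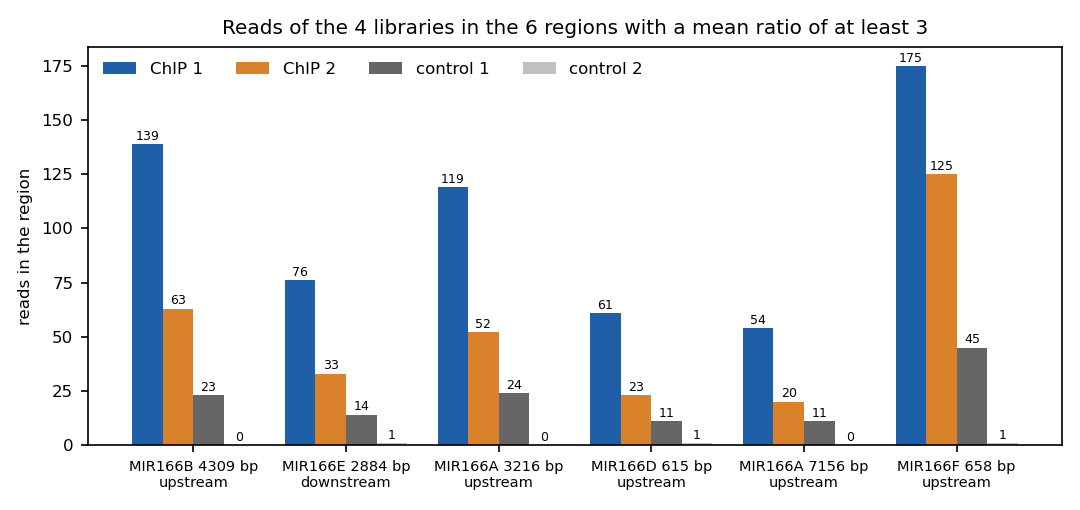
Reads (vertical axis) of the 4 libraries in the 6 regions with a mean ratio of at least 3, ordered by that ratio. ChIP replicate 1 holds 54 to 175 reads and replicate 2 holds 20 to 125, against 11 to 45 in control 1 and 0 or 1 in control 2.

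The regions were not concentrated at the hairpins. Of the 27, 18 lay upstream and 9 downstream, 13 lay within 3 kb and 7 within 1 kb. Of the 7 within 1 kb, 6 were upstream and 2 had a mean ratio of at least 3, those of MIR166D and MIR166F. In 17 regions, 4 of the 6 leading ones among them, another gene was nearer than the MIR gene, so which gene the leading regions of MIR166B, MIR166E and MIR166F and the region 7156 bp from MIR166A belong to cannot be told apart by distance. With the nearest gene of the reference annotation as the rule, 8 regions and 2 of the 6 remained. With 3 kb as the limit, 13 regions and 3 of the 6 remained.

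The spaces between coding genes that hold MIR166B, MIR166E and MIR166A carried many regions for their length. The MIR166B space of 7156 bp held 7 regions, and of the 1673 spaces of similar length (within a factor of 1.5) 1.14% held at least as many, with a median of 2. The MIR166A space of 13737 bp also held 7 regions, and 6.18% of 534 similar spaces held at least as many (median 2). The MIR166E space of 5155 bp held 4 regions, and 8.92% of 2579 similar spaces held at least as many (median 1). The spaces of MIR165A and MIR165B held 2 regions each, equal to the median. Those of MIR166C with MIR166D and of MIR166F held 1 each, also the median, and that of MIR166G none, like 31.8% of similar spaces. These counts include weak regions, since the table lists every region its caller found. The similar spaces came from whole chromosomes, centromeres included, where the study reports a lack of enriched peaks. Their median was 0.134 regions per kb for spaces like that of MIR166A, which itself held 0.510. The median was 0.245 for those like that of MIR166B (0.978) and 0.274 for those like that of MIR166E (0.776).

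**Figure D3:**
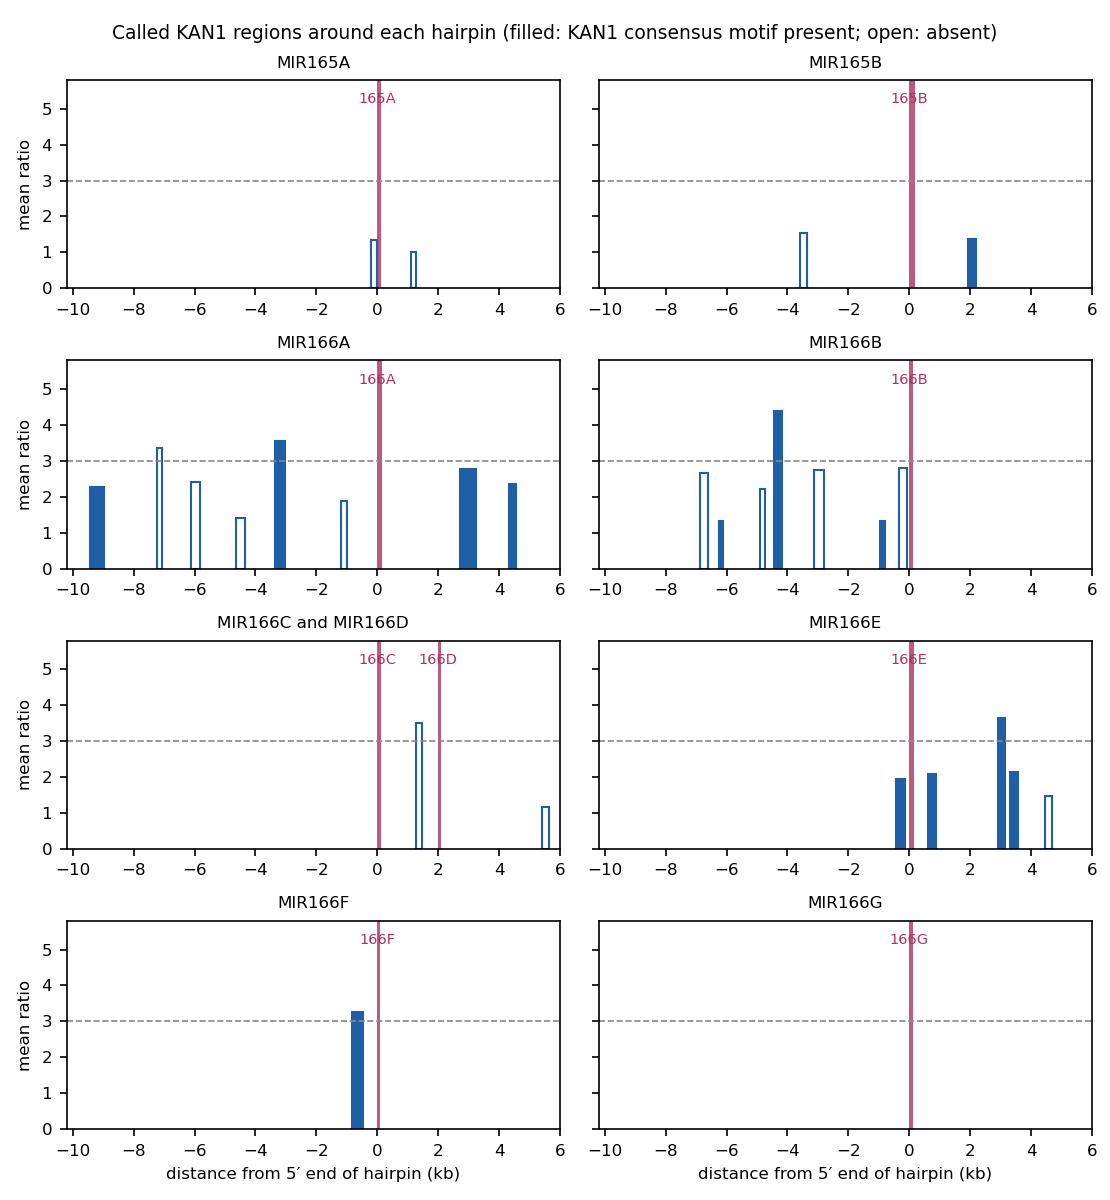
Mean ratio (bar height) of each region against its distance in kb from the 5′ end of the hairpin (pink), with the direction of transcription to the right and bar width equal to region width; filled bars hold at least 1 match to the KAN1 motif, and the dashed line marks a ratio of 3. The 7 MIR166B regions lie upstream, those of MIR166A spread over both sides, and the MIR166G panel is empty.

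Matches to the KAN1 motif had a share close to that of all regions. Of the 27 regions, 13 (48.1%) held VGAATAW on either strand, against 47.7% of all regions. Of the 6 leading regions 4 held it (66.7%), against 69.8% of all regions with a mean ratio of at least 3. In equal windows of 300 bp the shares were 51.9% and 50.3% for the 27 and for all regions. The leading MIR166B and MIR166E regions each held 1 AGAATAT on the minus strand, 30 and 42 bp before the centre. The MIR166A region 3216 bp upstream held 3 matches close together, and the MIR166F region held 2. The MIR166C and MIR166D region and the MIR166A region 7156 bp upstream held none, and neither did the MIR166B region at 208 bp. The region downstream of MIR166A held an overlapping pair, AGAATAT and GGAATAT, on opposite strands. A match is a description of the letters and not a measured binding site.

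Among the genes whose products act with miR165 and miR166 or on their genes, the highest mean ratios were at the HD-ZIP III targets PHB and REV and at DCL1, AS2 and SHR. Of the 18 genes listed, 16 had a region and 8 had one with a mean ratio of at least 3, against 25.4% of all named genes. Of the 65 regions that named them, 16 had a mean ratio of at least 3, against 18.8% of all regions. Of the 5 targets, 3 passed. PHB (AT2G34710) had 509 and 212 ChIP reads against 51 control reads 937 bp upstream, a mean ratio of 7.07 ± 4.12 (SD, n = 2). REV (AT5G60690) reached 6.57 ± 3.43 and ATHB8 (AT4G32880) 4.88 ± 1.98, while PHV (AT1G30490) and ATHB15 (AT1G52150) had 2.08 and 2.12. The REV region lay far from its gene, at 6486 bp upstream, and that of ATHB8 lay 560 bp downstream. The top region of every listed gene that had one also named another gene. These were AT2G34720 for PHB, AT5G60680 for REV, AT1G01030 for DCL1 and AT4G37640 for SHR. Which of the named genes such a region belongs to was not tested. In PHB, REV and ATHB8 both replicates were at least 3, which held for no MIR165 or MIR166 region, yet the replicate 1 interval of PHB (7.47 to 13.6) overlapped that of the leading MIR166B region.

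Of 7 genes for making and using miRNAs, 5 had a region and 1 passed the threshold, against 25.4% of all named genes. Of their 19 regions 3 passed, against 18.8% of all regions. DCL1 (AT1G01040), the nuclease that cuts the hairpin, had 374 and 172 ChIP reads against 41 control reads 2664 bp upstream, a mean ratio of 6.66 ± 3.48 (SD, n = 2). Of its partners that guide the cut, HYL1 had no region and SE had a mean ratio of 0.538. HEN1, which methylates the small RNAs, had none, and HST, which aids their export, had 2.55. AGO1, which carries the miRNA to its target, had 1.60, and AGO10, which holds miR165 and miR166 away from AGO1, had 2.18.

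Of 6 transcription factors that act on or beside the transcription of MIR165 and MIR166 genes, 4 passed, against 25.4% of all named genes. The 6 factors were named by 24 regions, of which 8 had a mean ratio of at least 3, against 18.8% of all regions. SHR (AT4G37650), which with SCR activates MIR165A and MIR166B in the root endodermis, had 302 and 112 ChIP reads against 34 control reads, a mean ratio of 6.09 ± 3.95 (SD, n = 2), and SCR had 2.47. AS1 and AS2, partners in leaf patterning, had 4.03 ± 2.52 and 6.22 ± 2.88. HAT3, an adaxial class II HD-ZIP gene, had 3.58 ± 1.73 and its relative ATHB4 had 2.50. The mean ratios of SHR and AS2 lay above the 4.39 of MIR166B, while the replicate 1 intervals of SHR (6.22 to 13.1) and AS2 (6.005 to 11.6) overlapped that of MIR166B.

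**Figure D4:**
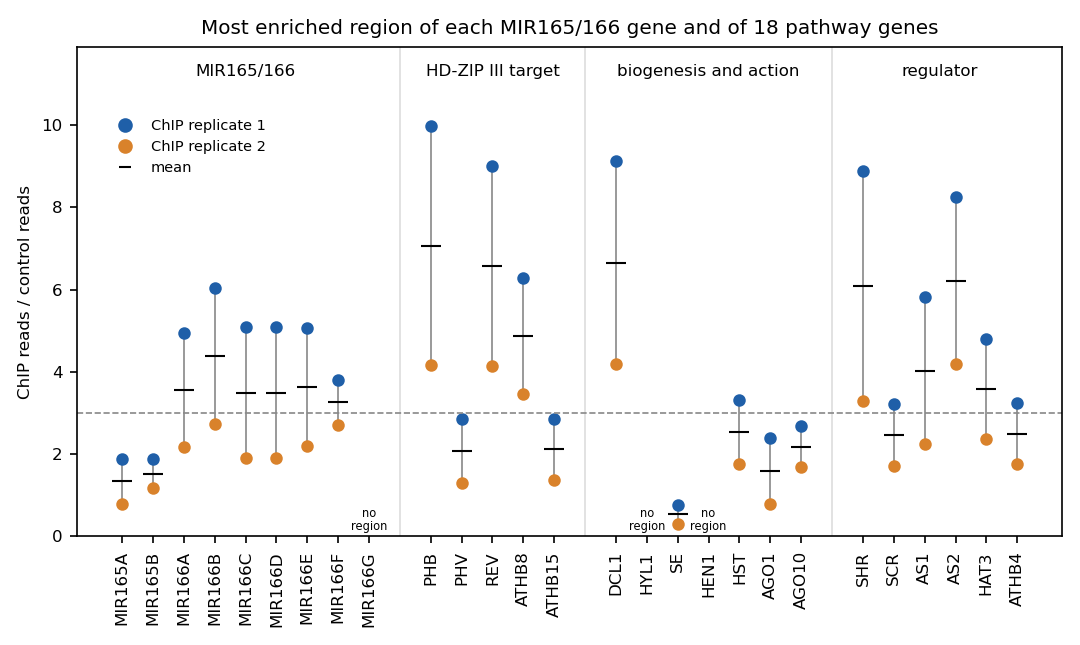
Ratio of ChIP to control reads in the most enriched region of each MIR165 and MIR166 gene and of 18 pathway genes, for ChIP replicate 1 (blue), replicate 2 (orange) and their mean (black bar); the dashed line marks 3. MIR166A to MIR166F have means of 3.26 to 4.39, MIR166G has no region, and MIR165A and MIR165B have 1.34 and 1.53, while PHB, REV, DCL1, SHR and AS2 lie above 6.

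Some other miRNA genes held stronger regions than the MIR166 genes. A mean ratio of at least 4 was found at 21 of the 317 other MIR genes. Of the 9 MIR165 and MIR166 genes it was found at 1, MIR166B. Of all regions, 9.90% had a mean ratio of at least 4. The lists of genes differ in size, so these counts do not place the other MIR genes as a set above the family. Of 317 other MIR genes of the reference, 115 were named by a region and 38 (12.0%) had one of at least 3, beside 6 of the 9 MIR165 and MIR166 genes. The median mean ratio of the top region was 2.01 for the other MIR genes with a region and 3.50 for the 8 MIR165 and MIR166 genes with one. Of the regions naming them, 62 of 267 (23.2%) had a mean ratio of at least 3, close to the 22.2% for the MIR165 and MIR166 regions. The highest were at MIR159b (10.6 ± 4.50, SD, n = 2), MIR167a (9.38 ± 4.01), MIR393b (7.36 ± 3.56), MIR160a (5.86 ± 2.63) and MIR406 (5.84 ± 2.995), each above the 4.39 of MIR166B. Each of these regions also named another gene: AT1G18070, AT3G22880, AT3G55730, AT2G39180 and AT1G52190, in the same order. They lay 1098, 1696, 1170, 2392 and 3140 bp from the MIR gene. Which of the named genes such a region belongs to was not tested. MIR167 and MIR160 target auxin response factors and MIR393 targets auxin receptors.

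The replicates split the reads alike. Replicate 1 contributed 64.5% of the ChIP reads in the 27 regions and 66.8% over all regions. Across the 27 regions the ratios of the replicates had a Spearman correlation of 0.836 (0.862 over all 22103), and both ratios share the control reads in their denominator. Control 2 had no read in 16 of the 27 regions, so the denominator was mostly control 1.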

How the data were processed

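Chromatin immunoprecipitation with sequencing (ChIP-Seq) was used on 4 Arabidopsis libraries. Per the labels, the study mapped reads to TAIR10. The deposited table lists called regions with read counts per library (estimated counts, since a few are not whole), distances to neighbouring genes, and the peak caller's p-value-based false discovery rates (q-values), which were used only as the authors deposited them; the caller and its settings are not given in the sources used here. The authors' rank product over the false discovery rates was not used. The file's notes pair each control with the same-numbered ChIP replicate.

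Ratios were computed in Python 3.11.15 with pandas 2.3.3, numpy 2.4.6 and scipy 1.17.1. ChIP reads were divided by summed control reads, and the study's threshold of 3-fold enrichment was applied to the mean of the 2 ratios, a choice made here. Counts were rounded to whole numbers for the exact 95% intervals. Each region has at most 227 ChIP reads in a replicate and 66 control reads, which limits the precision. No test was made, since the comparison also called the regions and has 2 replicates. The motif search and intervals were tested on simulated data. Chromosome lengths and the MIR166A hairpin sequence equalled those of TAIR10.1, which gave sequences and gene models; deposited distances differ from it by some bases.

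Named were all 9 genes with their regions and the other nearest gene of each, every gene of a list of 18 pathway genes, and the 5 other MIR genes with the highest ratio. The members and lists were chosen with earlier results of these data known. Alternatives changed the control, added reads, scaling, threshold, motif, distance rule and libraries.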

Additional observations from a re-analysis of the deposited data

How the results depend on the processing

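The count of 6 regions was 7 with control 1 alone (19.9% of all regions passed) and 6 with equal ChIP totals (18.8%). With 10 reads added to ChIP and control it was 1 (1 gene, 1 with the motif; 12.8% of all regions passed). A ratio of 3 in both replicates left 0 regions, 0 genes, 0 with the motif, and 16 other MIR genes. In both replicates with ChIP totals made equal it left 3 regions and 3 genes. A mean of at least 2 gave 16 of 27 regions (38.0% of all regions passed). Of these 16, 9 held the motif, and 14 pathway genes and 58 other MIR genes passed. A mean of at least 4 gave 1 region (9.90% of all regions passed), 1 gene, 1 with the motif and 21 other MIR genes. Within 3 kb 3 regions passed, and by the nearest reference gene 2.

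Leaving out each library in turn, the count of regions ranged from 0 (without ChIP replicate 1) to 12 (without ChIP replicate 2). Of all regions, 7.37% and 31.8% passed in these settings. The count of genes ranged from 0 to 7 and that of regions with the motif from 0 to 6. That of pathway genes ranged from 6 to 13 and that of other MIR genes from 16 to 63. Without control 1, only the 11 regions with a control 2 read had a ratio, and 11 passed, as did 100% of all regions so defined.

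As a replicate block, each ChIP replicate was divided by its same-numbered control. This gave 11 of 11 regions, 13 pathway genes and 63 other MIR genes at or above 3, against 99.2% of all regions so defined, because control 2 holds few reads. Whether the numbers pair samples was not tested.

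Low control counts (11 to 66 reads a region) limit every ratio. The called regions were selected by the same ChIP-to-control comparison, so their enrichment is not independent of the calling.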
